A study of Mus musculus with 6 samples.

Results

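To examine which signals a lung group 2 innate lymphoid cell (ILC2) was equipped to receive with and without SIRPα, 8 receptor genes were followed across the deposited bulk RNA-seq table: Il17rb, Nmur1, Vipr2, Calcrl, Ramp1, Ptger4, Ptgir and Cysltr1. They were chosen by name, as receptors for IL-25, neuropeptides, prostanoids and leukotrienes, and are 8 of the 17831 genes in the table. All 8 had enough reads to be tested. The comparison set 3 WT libraries (labelled genotype CB57BL/6) against 3 libraries from SIRPa KO mice (allele SIRPalphatm1Ynliu/J), for which no restriction of the deletion to a cell type is named. Mice of both genotypes were 6 to 8 weeks old, matched for age and sex, and received 0.5 μg of recombinant mouse IL-33 into the nose on 3 days. Lung cells were sorted on day 4 as CD45+ Lin- CD127+ ST2+ at a purity above 95%, then kept in culture with 10 ng/mL each of rmIL-2 and rmIL-7 for 18 or 24 h, since the sources differ on the time. All 6 libraries therefore come from IL-33-exposed, cytokine-cultured cells, and no resting ILC2 is among them.

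The libraries held 13980499 to 19051507 reads assigned to genes. Nothing in the labels says that they came from separate mice, and within each genotype 2 of the 3 share a code number (37 and 37V1 for WT replicates 1 and 2, 44 and 44V1 for SIRPa KO replicates 2 and 3), so p-values measure the spread between libraries, which may be technical. No pair of libraries agreed within sampling noise. WT replicate 3 stood apart from the other WT libraries: the median chi-square per gene was 26.4 and 24.7 in its pairs, against 7.86 between WT replicates 1 and 2 and 3.09 to 3.63 between SIRPa KO libraries. Sirpa itself had 149, 96 and 73 reads in WT and 48, 85 and 28 in SIRPa KO (log2 fold change, SIRPa KO against WT, -1.12 ± 0.42 SE; p adjusted over all genes = 0.115). Its levels in CPM, reads scaled to a common library total, did not overlap, but reads persisted in every SIRPa KO library, and the gene total does not show which exons they came from. All 12 ILC2 markers were detected, with a summed level of 13700 to 15140 CPM in WT and 20130 to 20730 CPM in SIRPa KO. Most of that sum was Il5 (8448 to 9711 and 12589 to 13241 CPM). Il5, Il2ra and Ptprc were called higher and Thy1 lower (log2 fold change -2.06, adjusted p = 0.0139), while Gata3 and Rora overlapped between genotypes. B cell markers summed to 216 to 479 CPM in WT and 23.1 to 84.6 CPM in SIRPa KO (5 of 6 called lower). Sums overlapped between genotypes for macrophage (39.8 to 126 CPM over all libraries), mast cell or basophil (1.73 to 51.8 CPM), eosinophil (4.14 to 28.6 CPM) and epithelial markers (8.37 to 74.4 CPM), of which Epcam was called lower, and smooth muscle or fibroblast markers reached at most 1.12 CPM. In bulk samples, fewer cells of a type and less RNA per cell cannot be told apart.

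As background, ILC2s sit close to nerves, epithelium and mast cells in the lung and read signals from each of them. IL-25, released by tuft cells, is bound by IL17RB paired with IL17RA. Neuromedin U (NMUR1), vasoactive intestinal peptide (VIPR2) and calcitonin gene-related peptide (CGRP) come from nerves or neuroendocrine cells. The CGRP receptor is a heterodimer: CALCRL is the seven-helix receptor, and RAMP1 is the single-pass accessory protein that carries it to the surface and makes it a CGRP receptor, whereas RAMP2 and RAMP3 turn the same CALCRL into adrenomedullin receptors. Among lipid mediators, PTGER4 (EP4) and PTGIR (IP) bind prostaglandin E2 and prostacyclin and raise cAMP. These prostanoid receptors are generally known to restrain ILC2 cytokine output. CYSLTR1 binds cysteinyl leukotrienes and, like NMUR1, couples mainly to Gq and calcium, a signal known to activate these cells.

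The promoters of the 3 receptor genes whose WT and SIRPa KO levels did not overlap are shown, because they are the genes the results turn on. Each window runs from 250 bases before to 50 bases after the RefSeq start (GRCm38.p6), on the gene's own strand. Capitals mark a match on either strand to TGACG, the core of the cAMP response element, or to a GATA factor motif with the letters GATAA, likewise on either strand. Ramp1 is at chr1:91179572-91179871 (+), Calcrl at chr2:84425217-84425516 (-) and Il17rb at chr14:30008847-30009146 (-).
Ramp1: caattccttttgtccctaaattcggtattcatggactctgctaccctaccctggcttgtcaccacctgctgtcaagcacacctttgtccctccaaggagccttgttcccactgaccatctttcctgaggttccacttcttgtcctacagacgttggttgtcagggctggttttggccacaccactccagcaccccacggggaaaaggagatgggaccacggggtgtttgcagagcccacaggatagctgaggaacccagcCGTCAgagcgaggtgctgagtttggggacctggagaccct
Calcrl: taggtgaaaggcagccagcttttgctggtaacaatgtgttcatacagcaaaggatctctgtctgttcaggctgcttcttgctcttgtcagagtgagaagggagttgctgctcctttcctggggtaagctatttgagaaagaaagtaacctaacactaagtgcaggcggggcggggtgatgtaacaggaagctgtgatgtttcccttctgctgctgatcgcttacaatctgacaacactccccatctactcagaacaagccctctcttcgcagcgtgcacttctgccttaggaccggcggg
Il17rb: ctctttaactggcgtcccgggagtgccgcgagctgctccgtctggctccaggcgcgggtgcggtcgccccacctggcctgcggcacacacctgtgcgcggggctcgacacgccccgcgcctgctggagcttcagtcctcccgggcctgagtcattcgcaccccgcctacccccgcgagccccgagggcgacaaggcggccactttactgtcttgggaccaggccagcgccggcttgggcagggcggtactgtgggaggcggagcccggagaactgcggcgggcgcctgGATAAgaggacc
The Ramp1 window held 1 match to the cAMP response core, found in 20.8% of 32851 mouse promoter windows of this length, and the Il17rb window held 1 match to the GATA motif, found in 25.4% of them. The Calcrl window held neither. The complete element TGACGTCA, found in 1.79% of windows and containing both core forms, was in no window of the 7 receptor genes searched (Cysltr1 was not analysed here). The windows also differed in composition: GC content was 72.0% with 32 CpG in Il17rb, 55.7% with 6 CpG in Ramp1 and 50.7% with 7 CpG in Calcrl. A match is a description of letters and not a bound site.

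Across the 8 receptors, Ramp1 was the single gene that passed the threshold (adjusted p under 0.05, edgeR), and it fell. Calcrl, which encodes its partner, had higher levels in every SIRPa KO library, and Il17rb had lower ones, without passing the threshold. The other 5 receptors had overlapping levels in the 2 genotypes. Over all 13623 genes tested, 11.7% were called, 5.94% higher and 5.81% lower, and 42.8% had non-overlapping groups, so 1 of 8 called and 3 of 8 not overlapping are close to the background of this comparison. The median log2 fold change was 0.07 for the 8 receptors and -0.03 for all genes tested. Levels in every library are drawn in the plot of receptor transcripts.

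**Figure D1:**
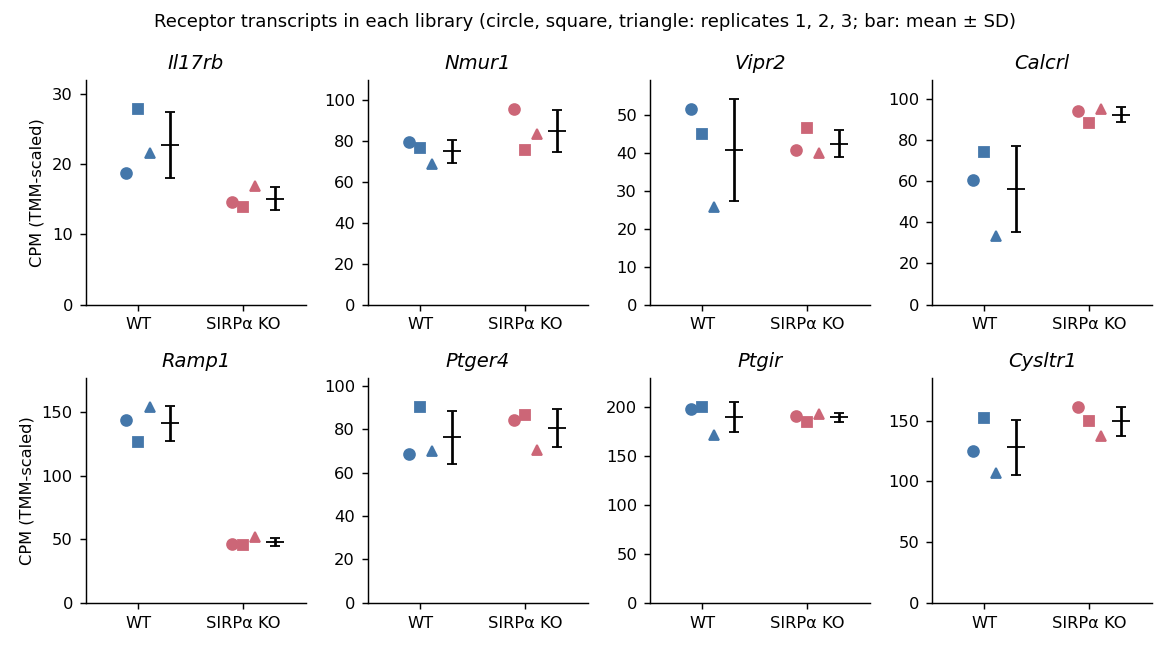
Level of each receptor gene in CPM (scaled by TMM factors, linear axis from 0) in the 3 WT (blue) and 3 SIRPa KO (red) libraries, with the mean and SD beside each group. Ramp1 sits between 127 and 154 CPM in WT and between 45.5 and 51.5 CPM in SIRPa KO, while Ptgir stays between 171 and 199 CPM in all 6 libraries.

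To compare the CGRP receptor between genotypes, its subunits were taken first. Ramp1 (chromosome 1, 91179822 to 91225196, + strand, mm10) had 144, 127 and 154 CPM in the WT libraries and 46.6, 45.5 and 51.5 CPM in the SIRPa KO libraries. Every WT library was far above every SIRPa KO library, and the spread within each genotype was small beside the gap. The mean level was 141 ± 13.8 CPM in WT and 47.9 ± 3.20 CPM in SIRPa KO (SD, n = 3 each), a 2.95-fold lower level in SIRPa KO, with a 95% interval of 0.274 to 0.418 for SIRPa KO over WT. The log2 fold change was -1.56 ± 0.13 (SE), with an adjusted p of 0.00243 in edgeR's quasi-likelihood test. Ramp1 passed the threshold with each of the 6 libraries left out in turn (log2 fold change -1.64 to -1.49, adjusted p 0.000979 to 0.0487). The share of all genes called was 7.89%, 16.3% and 18.4% without WT replicate 1, 2 or 3, and 0.112%, 0.120% and 0.120% without SIRPa KO replicate 1, 2 or 3. With libraries of 1 code summed, which leaves 2 against 2, its log2 fold change was -1.60 and its adjusted p 0.122, in a test that called 0.0686% of genes.

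B cell markers and the T cell marker Cd3g fell alongside Ramp1, although the sort gate excluded cells positive for B220, CD3ε, TCRβ or TCRγδ. The B cell sum was lowest among WT libraries in replicate 3 (216 CPM), the WT library with the highest Ramp1 level. The T cell list summed to 18.4 to 22.1 CPM in WT and 4.67 to 5.37 CPM in SIRPa KO, most of it Cd3g (230 to 326 and 56 to 60 reads). Cd3e (6 to 42 reads per library, edgeR adjusted p = 0.780) and Cd3d (1 to 17 reads, too few to be tested) overlapped between genotypes. Cd4 and Cd5 had 0 to 11 reads in any library. The part of B cells or T cells in the Ramp1 result was not tested.

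Calcrl (chromosome 2, 84330626 to 84425411, - strand) had 60.3, 74.3 and 33.3 CPM in WT and 93.8, 88.0 and 94.96 CPM in SIRPa KO. The SIRPa KO libraries lay close together and above all WT libraries, whereas WT replicate 3 was well below the other WT libraries. The mean was 56.0 ± 20.8 CPM in WT and 92.3 ± 3.73 CPM in SIRPa KO (SD, n = 3 each), a log2 difference of 0.72 ± 0.26 (SE) with an adjusted p of 0.109. This difference did not pass the threshold in the main test. It passed without WT replicate 3 (0.46, adjusted p = 0.039), without WT replicate 2 (0.98, adjusted p = 0.0428) and in DESeq2 (0.74, adjusted p = 0.0405), tests in which more genes passed altogether (18.4%, 16.3% and 24.4% of genes, in that order). With an offset that removes each library's smooth trend with transcript length and GC content, it was 0.27 with an adjusted p of 0.325.

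Transcript length moved with the genotype contrast. Among well-expressed genes (mean log2 CPM no lower than 3), fold changes had a median on the log2 scale of -0.55 for length decile 1, the shortest, and of 0.47 for length decile 10, the longest. Calcrl and Cysltr1 lay in length decile 8, where the median of all genes was 0.29, Ramp1 in decile 3 (-0.10) and Nmur1 in decile 2 (-0.28). With the offset, 8.87% of genes were called, and Ramp1 remained past the threshold (-1.47, adjusted p = 0.00113). Why the contrast followed length was not tested.

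Endothelial markers also moved with Calcrl, a gene best known from vessels. Their summed level was 16.2 to 27.4 CPM in WT and 41.0 to 43.8 CPM in SIRPa KO, almost entirely Pecam1 (1.82-fold higher, adjusted p = 0.0421), which leukocytes also express. The endothelium-specific Kdr and Vwf had 0 to 22 and 0 to 11 reads per library, against 503 to 1677 for Calcrl, and 3 of the 6 listed endothelial markers were analysed here. Ramp2, the accessory protein of the endothelial adrenomedullin receptor, was at 0.230 to 1.57 CPM, a value named outside the naming rule after it was seen. The part of endothelial cells in the Calcrl result was not tested.

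Ramp3, the remaining accessory protein, had 7.94, 11.4 and 14.5 CPM in WT and 5.30, 5.40 and 4.03 CPM in SIRPa KO. Its groups did not overlap, and it fell (log2 fold change -1.19 ± 0.30 SE, adjusted p = 0.0437). This call was lost without WT replicate 2 (-1.19, adjusted p = 0.0613), without any SIRPa KO replicate (-1.26 to -1.06, adjusted p 0.151 to 0.156) and with the length and GC offset (-0.75, adjusted p = 0.112).

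Since both partners are read in the same library, their ratio does not depend on how libraries are scaled, but it can depend on transcript length, since Ramp1 and Calcrl lie in length deciles 3 and 8. The ratio of Ramp1 to Calcrl reads per kilobase was 5.01, 3.58 and 9.71 in WT and 1.04, 1.09 and 1.14 in SIRPa KO. Per kilobase of the longest annotated transcript, Ramp1 was thus above Calcrl in each WT library and close to it in each SIRPa KO library. In reads not divided by length, the ratio was 1.70 to 4.62 in WT and 0.497 to 0.543 in SIRPa KO. Gene totals do not show which transcript forms were expressed, so the number of Ramp1 per Calcrl transcript was not measured. The ratio was 5.13-fold lower in SIRPa KO, or 3.89-fold lower without WT replicate 3, in which Ramp1 was highest and Calcrl lowest. With the length and GC offset, an alternative chosen after seeing the data, the fitted fold changes of Ramp1 and Calcrl differed by 3.34-fold, against 4.87-fold in the main fit, and those of Ramp3 and Calcrl by 2.03-fold, against 3.77-fold. An exact two-sided permutation test gave p = 0.1, the smallest value that 3 against 3 allows. The same ratio for Ramp3 was 0.482, 0.561 and 1.59 in WT and 0.207, 0.225 and 0.156 in SIRPa KO, 3.90-fold lower (exact permutation p = 0.1; 2.69-fold lower without WT replicate 3). Between the accessory proteins themselves, the ratio of Ramp1 to Ramp3 overlapped between genotypes (exact permutation p = 0.3). These 3 ratios belong to a family of 5 that was computed, and none can reach 0.05 in this design. The plot of accessory protein ratios shows both groups.

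**Figure D2:**
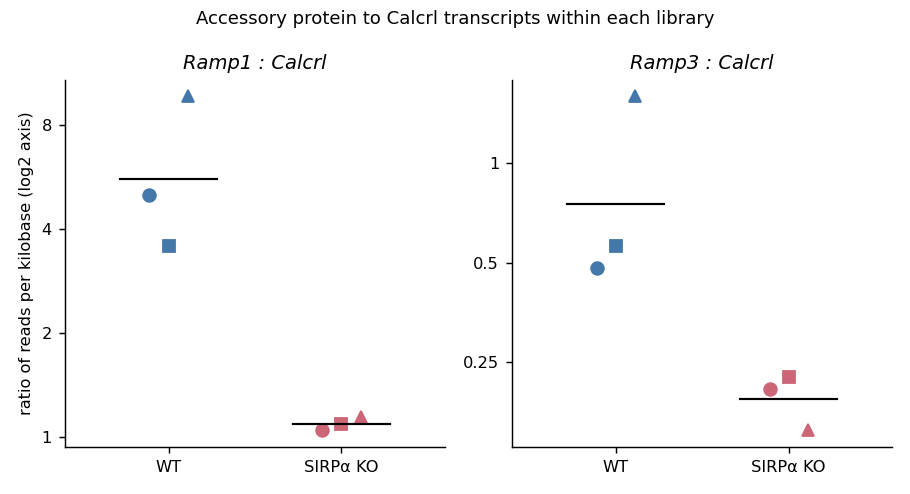
Ratio of reads per kilobase of Ramp1 (left) and Ramp3 (right) to Calcrl in each library on a log2 axis, with WT in blue, SIRPa KO in red, replicates 1, 2 and 3 as circle, square and triangle, and the geometric mean as a bar. Ramp1 to Calcrl is 3.58 to 9.71 in WT and 1.04 to 1.14 in SIRPa KO.

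Calca, the gene that encodes CGRP, had reads in every library, though a gene total shows neither the transcript form nor the cells of origin. It had 37.4, 38.8 and 46.9 CPM in WT and 34.8, 39.2 and 42.7 CPM in SIRPa KO, and the groups overlapped (log2 difference -0.08 ± 0.16 SE, adjusted p = 0.774). It was named outside the naming rule, after its values were seen.

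For the other neuropeptide receptors, Nmur1 (chromosome 1, 86386303 to 86426228, - strand), the receptor through which neuromedin U activates ILC2s, had 79.4, 76.6 and 68.8 CPM in WT and 95.6, 75.4 and 83.3 CPM in SIRPa KO. The lowest SIRPa KO library lay within the WT range. The log2 difference was 0.18 (95% interval -0.14 to 0.50, adjusted p = 0.406), and it was 0.54 (adjusted p = 0.0776) with the length and GC offset. Vipr2 (chromosome 12, 116077726 to 116146261, + strand), the receptor for vasoactive intestinal peptide, had 51.7, 45.0 and 25.9 CPM in WT and 40.9, 46.7 and 40.1 CPM in SIRPa KO. Here WT replicate 3 was again the low library, and the SIRPa KO libraries lay inside the WT range. Its log2 difference was 0.06 (95% interval -0.52 to 0.64, adjusted p = 0.893) and turned to -0.18 (adjusted p = 0.391) without WT replicate 3. A difference in either direction within the main interval was therefore not excluded.

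The IL-25 receptor was examined through both of its chains. Il17rb (chromosome 14, 29996135 to 30008896, - strand), the ligand-binding chain, had 18.7, 27.9 and 21.6 CPM in WT and 14.6, 13.9 and 16.9 CPM in SIRPa KO, which is 228 to 392 reads per library. All SIRPa KO values were below all WT values, with a narrow gap between the nearest libraries. The mean was 22.7 ± 4.70 CPM in WT and 15.1 ± 1.61 CPM in SIRPa KO (SD, n = 3 each), and the log2 difference of -0.59 ± 0.21 (SE) gave an adjusted p of 0.106, which did not pass the threshold in the main test or in any of 17 alternatives (adjusted p 0.067 to 0.309). Il17rb shares 141 exon bases with Actr8 on the opposite strand, and reads there cannot be assigned without strand, whose use is not stated; Actr8 itself differed by 0.27 (adjusted p = 0.259). Il17ra, the shared signalling chain, had 114, 104 and 69.3 CPM in WT and 80.7, 115 and 105 CPM in SIRPa KO (log2 difference 0.07, adjusted p = 0.852, and -0.28, adjusted p = 0.271 with the length and GC offset), and the ratio of Il17rb to Il17ra overlapped between genotypes (exact permutation p = 0.2).

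Of the 10 tested genes of IL-25 receptor signalling, 1 was called higher and none lower, beside 11.7% called over all genes tested. The median log2 fold change of the 10 was 0.22, against -0.03 for all genes tested. The gene called was Nfkbiz, which encodes IκBζ, an inducible partner of NF-κB downstream of IL-17 family receptors. It had 30.0, 36.6 and 27.6 CPM in WT and 56.8, 55.3 and 65.7 CPM in SIRPa KO, with no overlap (log2 fold change 0.92 ± 0.17 SE, adjusted p = 0.0190). The call was lost without any SIRPa KO replicate (adjusted p 0.100 to 0.107). Among the more abundant members that were not called, the adaptor Traf3 had 59.8 to 92.9 CPM in WT and 113 to 131 CPM in SIRPa KO (log2 difference 0.57, adjusted p = 0.0827; called without WT replicate 3 with 0.40, adjusted p = 0.0343, and in DESeq2 with 0.59, adjusted p = 0.0246; 0.25, adjusted p = 0.177 with the length and GC offset), and Traf2 had 88.5 to 108 and 95.7 to 109 CPM (0.05, adjusted p = 0.799).

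None of Ptgir, Ptger4 and Cysltr1, the lipid mediator receptors among the 8, was called in the main test or in any of the 17 alternatives. Ptgir (chromosome 7, 16906490 to 16910905, + strand), the prostacyclin receptor, had 197, 199 and 171 CPM in WT and 190, 184 and 193 CPM in SIRPa KO. Means were 189 ± 15.5 and 189 ± 4.23 CPM (SD, n = 3 each). The log2 difference of -0.0013 had a 95% interval of -0.25 to 0.25 (adjusted p = 0.995), so differences larger than 1.19-fold lay outside the interval, and its sign changed with the scaling. Ptger4 (chromosome 15, 5206661 to 5244187, - strand), the prostaglandin E2 receptor EP4, had 68.7, 90.0 and 69.8 CPM in WT and 84.4, 86.5 and 70.4 CPM in SIRPa KO. The genotypes overlapped, with a log2 difference of 0.08 (95% interval -0.29 to 0.44, adjusted p = 0.764) that was -0.02 with upper quartile scaling and -0.27 (adjusted p = 0.283) with the length and GC offset. Ptger4 shares 82 exon bases with Ttc33 on the opposite strand, which had 32.9 CPM in WT and 29.0 CPM in SIRPa KO on average, and 1015 with Gm15937, not analysed here.

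Cysltr1 (X chromosome, 106574346 to 106603679, - strand), the cysteinyl leukotriene receptor, had 125, 152 and 107 CPM in WT and 161, 150 and 137 CPM in SIRPa KO. SIRPa KO replicates 2 and 3 lay within the WT range, and only replicate 1 exceeded it. The log2 difference was 0.22 (95% interval -0.13 to 0.57, adjusted p = 0.342) and became -0.29 (adjusted p = 0.139) with the length and GC offset. Eosinophils also carry CYSLTR1, and the sort gate excluded CD11b+ cells. Eosinophil markers summed to 28.6 CPM in SIRPa KO replicate 1 and to 4.14 to 14.2 CPM in the other 5 libraries. The part of eosinophils in the Cysltr1 value was not tested.

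**Figure D3:**
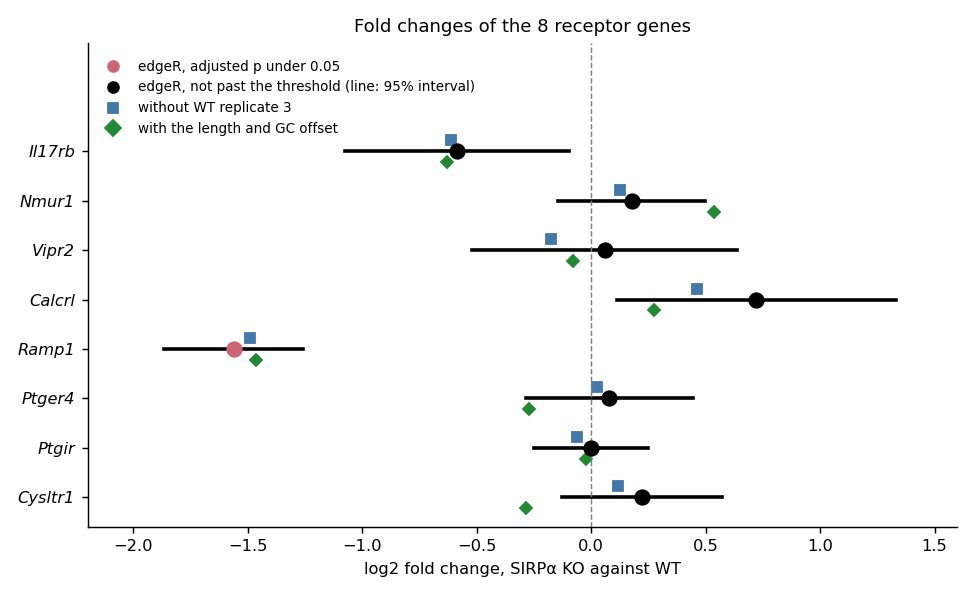
Log2 fold change of each receptor gene, SIRPa KO against WT, from edgeR with its 95% interval (circle and line), without WT replicate 3 (blue square) and with the length and GC offset (green diamond). Ramp1 lies between -1.56 and -1.47 in these 3 fits, Calcrl moves from 0.72 to 0.46 and 0.27, and the intervals of Nmur1, Vipr2, Ptger4, Ptgir and Cysltr1 include 0.

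Among the 11 other tested receptors of the same families, 2 were called lower and none higher, beside 11.7% called over all genes tested. The 11 receptors had a median log2 fold change of -0.38. Beside Ramp3, the gene called lower was Ltb4r1, which encodes BLT1, the high-affinity receptor for leukotriene B4. It had 416, 447 and 602 CPM in WT and 255, 248 and 255 CPM in SIRPa KO, with no overlap (log2 fold change -0.95 ± 0.15 SE, adjusted p = 0.0144). It was called without each WT replicate and lost without any SIRPa KO replicate (adjusted p 0.0822 to 0.101), and it was -0.46 (adjusted p = 0.0236) with the length and GC offset. Ptger2, the EP2 receptor for prostaglandin E2, had 88.8, 96.6 and 78.7 CPM in WT and 71.6, 61.2 and 70.5 CPM in SIRPa KO. Those groups did not overlap either, but the log2 difference of -0.38 ± 0.14 (SE) gave an adjusted p of 0.106. Ptger2 was called without WT replicate 3 (-0.45, adjusted p = 0.0346) and with the length and GC offset (-0.70, adjusted p = 0.0173). The ratio of Ptger4 to Ptger2 reads was 1.38-fold higher in SIRPa KO, with 0.774 to 0.932 in WT and 0.999 to 1.41 in SIRPa KO (exact permutation p = 0.1, the smallest possible).

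Levels of different receptors were compared only per kilobase of their longest annotated transcript. In WT the order was Ramp1 (60.9 CPM per kilobase), Ptgir (57.2), Nmur1 (48.8), Cysltr1 (24.9), Ptger4 (20.2), Vipr2 (12.1), Calcrl (11.5) and Il17rb (8.82). The ranges over libraries overlapped between Ramp1 and Ptgir, between Cysltr1 and Ptger4, and from Vipr2 through Calcrl to Il17rb, so those neighbours were not separated by their spread. In SIRPa KO it was Ptgir (57.2), Nmur1 (55.3), Cysltr1 (29.0), Ptger4 (21.3), Ramp1 (20.6), Calcrl (18.9), Vipr2 (12.6) and Il17rb (5.87). There the ranges overlapped between Ptgir and Nmur1 and between Ptger4 and Ramp1. Ramp1 thus moved from rank 1 to rank 5, next to Calcrl, while the order of Ptgir, Nmur1, Cysltr1 and Ptger4 was the same in both genotypes and Il17rb was last in both.

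Genes that relay these receptors were taken from lists of G protein pathways. Gs couples receptors such as CALCRL with RAMP1, VIPR2, PTGER4 and PTGIR to adenylyl cyclase, cAMP and protein kinase A. Of 26 tested Gs and cAMP genes, 1 was called higher and 2 lower, beside 11.7% called over all genes tested. The median log2 fold change of the 26 was 0.11. Gnas, which encodes the Gs alpha subunit, had 994, 705 and 991 CPM in WT and 494, 534 and 681 CPM in SIRPa KO. Its groups were separated by a small gap (log2 fold change -0.66 ± 0.17 SE, adjusted p = 0.0487), and the call was lost without WT replicate 1 (-0.57, adjusted p = 0.0983), without WT replicate 3 (-0.57, adjusted p = 0.0706), without any SIRPa KO replicate (-0.80 to -0.56, adjusted p 0.095 to 0.191) and with the length and GC offset (-0.69, adjusted p = 0.0593).

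Gnb2, a G protein beta subunit, had 350, 269 and 297 CPM in WT and 171, 178 and 178 CPM in SIRPa KO (log2 fold change -0.80 ± 0.12 SE, adjusted p = 0.0144; -0.39, adjusted p = 0.0578 with the length and GC offset). Akap13, an anchoring protein for protein kinase A, had 125 to 207 CPM in WT and 245 to 270 CPM in SIRPa KO (0.69 ± 0.18 SE, adjusted p = 0.0483; 0.65, adjusted p = 0.0972 without WT replicate 1, and 0.23, adjusted p = 0.196 with the length and GC offset). Both calls were lost without any SIRPa KO replicate (adjusted p 0.0844 to 0.103 for Gnb2 and 0.134 to 0.179 for Akap13). The abundant subunits Gnb1 (log2 difference -0.75, adjusted p = 0.163) and Prkar1a (-0.26, adjusted p = 0.0759) were not called in the main test. Prkar1a, a regulatory subunit of protein kinase A, had 916 to 927 CPM in WT and 751 to 784 CPM in SIRPa KO, and it passed without WT replicate 3 (-0.24, adjusted p = 0.0163), with the length and GC offset (-0.55, adjusted p = 0.0231), in DESeq2 (-0.23, adjusted p = 0.0199) and with upper quartile scaling (-0.36, adjusted p = 0.0489).

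Gq, the main partner of NMUR1 and CYSLTR1, activates phospholipase C beta and releases calcium. Of 18 tested genes of this pathway, 2 were called higher and none lower, beside 11.7% called over all genes tested. The median log2 fold change of the 18 was 0.05. Both genes called in this list encode phospholipase C beta enzymes. Plcb2 had 8.51, 6.76 and 4.30 CPM in WT and 17.9, 23.6 and 17.1 CPM in SIRPa KO (log2 fold change 1.58 ± 0.29 SE, adjusted p = 0.0207). Plcb4 had 42.7, 54.8 and 22.8 CPM in WT and 93.4, 92.5 and 83.5 CPM in SIRPa KO (1.16 ± 0.29 SE, adjusted p = 0.0405; 1.21, adjusted p = 0.0727 without WT replicate 1, and 0.74, adjusted p = 0.0451 with the length and GC offset). For both, every SIRPa KO library lay above every WT library. Both calls were lost without any SIRPa KO replicate (adjusted p 0.0868 to 0.121 for Plcb2 and 0.119 to 0.155 for Plcb4). The calcium channel gene Itpr1 had 86.4, 156 and 66.8 CPM in WT and 179, 160 and 175 CPM in SIRPa KO (log2 difference 0.74, adjusted p = 0.121, and 1.16, adjusted p = 0.0137 without WT replicate 2, its highest WT library). It was also called in DESeq2 (0.76, adjusted p = 0.0477), and with the length and GC offset it was 0.29 (adjusted p = 0.373). Itpr2 (-0.0097, adjusted p = 0.975) and Prkcd (0.11, adjusted p = 0.704) had overlapping groups, but Itpr2 was called lower with the length and GC offset (-0.50, adjusted p = 0.0255).

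Genes that end receptor signalling, the receptor kinases, arrestins and regulators of G protein signalling, had negative fold changes in 11 of 14 tested (median -0.53 on the log2 scale), and 2 of the 14 were called, both lower. Over all genes tested, 51.6% of fold changes were negative and 11.7% were called. Arrb2, which encodes beta-arrestin 2, had 164, 152 and 154 CPM in WT and 74.6, 81.4 and 88.5 CPM in SIRPa KO, tight within each genotype (log2 fold change -0.94 ± 0.12 SE, adjusted p = 0.00937). Rgs10 had 10.5, 12.7 and 8.94 CPM in WT and 3.96, 4.09 and 4.03 CPM in SIRPa KO (-1.41 ± 0.26 SE, adjusted p = 0.0194; -1.01, adjusted p = 0.0789 with the length and GC offset). Both calls were lost without any SIRPa KO replicate (adjusted p 0.0608 to 0.0921 for Arrb2 and 0.0951 to 0.115 for Rgs10). The receptor kinases Grk2 and Grk6 were not called, and WT replicate 1 stood out for both. Grk2 had 314, 99.1 and 138 CPM in WT and 83.1, 88.0 and 121 CPM in SIRPa KO (log2 difference -0.92, adjusted p = 0.155), and without WT replicate 1 the difference was -0.28. Grk6 had 286, 103 and 149 CPM in WT and 87.2, 90.4 and 145 CPM in SIRPa KO (-0.74, adjusted p = 0.207), or -0.23 without WT replicate 1. Rgs1, the most abundant gene of the list, had 273 to 369 CPM in WT and 248 to 254 CPM in SIRPa KO (-0.39, adjusted p = 0.0849; -0.51, adjusted p = 0.0411 without WT replicate 1, and -0.98, adjusted p = 0.0217 with the length and GC offset).

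Of 16 tested genes for ligands and their synthesis or breakdown, 1 was called higher and none lower, beside 11.7% called over all genes tested. The median log2 fold change of the 16 was 0.06. The gene called in this list was Ptgs2, which encodes cyclooxygenase 2, the inducible enzyme at the head of prostanoid synthesis. It had 4.89, 4.69 and 4.04 CPM in WT and 10.8, 14.5 and 13.2 CPM in SIRPa KO, with no overlap (log2 fold change 1.50 ± 0.24 SE, adjusted p = 0.0155; adjusted p 0.0868 to 0.105 without any SIRPa KO replicate). Lta4h, which makes leukotriene B4, had 172 to 175 CPM in WT and 130 to 142 CPM in SIRPa KO (log2 difference -0.36, adjusted p = 0.0559). It was called without WT replicate 3 (-0.35, adjusted p = 0.0216), with the length and GC offset (-0.63, adjusted p = 0.0188), in DESeq2 (-0.34, adjusted p = 0.00553), with upper quartile scaling (-0.46, adjusted p = 0.0358) and with the stricter filter on low counts (-0.40, adjusted p = 0.0363). Ptges3 (0.05, adjusted p = 0.769) and Alox5, the first enzyme of leukotriene synthesis (0.13, adjusted p = 0.713), had overlapping groups.

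**Figure D4:**
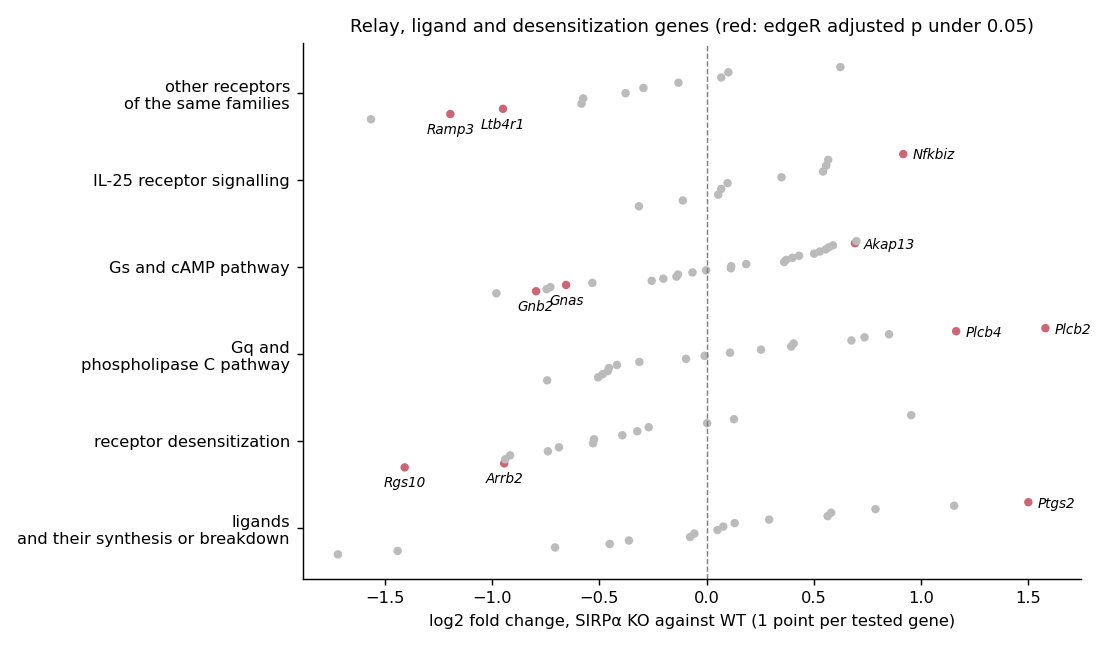
Log2 fold change, SIRPa KO against WT, of each tested gene in 6 lists of related genes, with genes past the edgeR threshold in red and named. Each list has 1 point per gene, from lowest to highest, and Il17ra, a member of more than 1 list, is drawn in each. Of 94 genes, each counted once, 5 were called higher and 6 lower, and in the desensitization list 11 of 14 lie left of 0. Over all genes tested, 11.7% were called and 51.6% of fold changes were negative.

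Over all 6 lists, 11 of 94 tested genes were called, 5 higher and 6 lower, beside 11.7% of all genes tested. No gene of the lists was called without any of the 3 SIRPa KO replicates (0 in each of those tests, in which 16 or 17 genes passed over the whole table and 2935 to 3183 had an unadjusted p under 0.05), and 21 were called without WT replicate 3 and in DESeq2.

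Lastly, for each receptor the 2 genes with the most similar profile were sought by the root mean square difference of centred log2 CPM over the 6 libraries, among 9146 genes. The profiles nearest to Ramp1 were Pop4 (0.0632), a subunit of ribonuclease P, and Il1r2 (0.0978), the decoy receptor for IL-1. Those nearest to Calcrl were Mcph1 and Phf8 (0.0397 each), and those nearest to Il17rb were Tmem51 (0.0771) and Sertad2 (0.0969). Among the receptors that were not separated by genotype, Nmur1 was nearest to Nkapd1 (0.032) and Ccdc43 (0.0406), Vipr2 to Tox (0.0415), a transcription factor of innate lymphoid development, and Cnot3 (0.0559), and Ptger4 to Arhgap4 (0.0566) and Timeless (0.0593). Ptgir was nearest to Ppp1r16b (0.0275) and Synj2bp (0.0283), and Cysltr1 to Copg2 and Clpb (0.0427 each). No receptor of the 8 was among the nearest genes of another.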

How the data were processed

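Total RNA from 6 cultured ILC2 libraries (10 pg input, SMARTer amplification) was sequenced on an Illumina NextSeq instrument. The authors aligned reads with STAR to mm10 with GENCODE M21 in Partek (10.0 and STAR 2.7.8 in the submitters' processing notes, which also name DESeq2) and deposited estimated counts per gene, not normalized. Between 61.4% and 65.8% of values were whole within 0.001, and strand and multi-mapping settings are not given in the sources used here. Samples were grouped by the labelled genotype.

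Estimated counts were rounded and tested in R 4.3.3 with edgeR 4.0.16 (filterByExpr with a minimum count of 10, TMM scaling, quasi-likelihood F test, Benjamini-Hochberg over 13623 genes, threshold 0.05). Levels are CPM with TMM factors. Standard errors are the log2 fold change over the square root of F. Biological coefficients of variation were 38.1% in WT and 15.2% in SIRPa KO. Transcript lengths, positions and GC content came from GENCODE M21 (17400 genes matched by symbol, 212 by synonym, 219 unmatched) and promoters from RefSeq. Alternatives were DESeq2 1.42.0, limma 3.58.1 voom, other scalings and filters (at least 50 reads in 3 libraries), each library left out, a replicate block, libraries of 1 code summed, thinning to the smallest library, and a spline offset (5 degrees of freedom) for length and GC. The scripts were tested on simulated data. Intervals are 95%.

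The receptors and gene lists were chosen with earlier results of these data known. Named genes are all 8 receptors, Sirpa, every list gene with an adjusted p under 0.05, the 3 most abundant of each list, and the 2 genes most like each receptor. No protein sequence was used here.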

Additional observations from a re-analysis of the deposited data

How the results depend on the processing

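Ramp1 kept its direction in all 17 alternatives (-1.67 to -1.47 on the log2 scale, or -1.64 to -1.49 with a library left out) and lost its call in 1, with libraries of 1 code summed (-1.60). Il17rb and Nmur1 kept their side of the threshold in all 17. Calcrl was called in DESeq2 (0.74) and ranged from 0.46 to 0.98 with a library left out, so the number of receptors called was 2 in DESeq2, 0 with codes summed and 1 to 2 with a library left out. Upper quartile scaling, which moved the median of all genes from -0.03 to -0.13, reversed Vipr2 (-0.027), Ptger4 (-0.020), Il17ra (-0.022), Traf2 (-0.047) and Ptges3 (-0.055). The length and GC offset reversed Vipr2 (-0.079), Ptger4 (-0.27), Cysltr1 (-0.29), Il17ra (-0.28), Traf2 (-0.16) and Ptges3 (-0.0023). Ptgir, at -0.0013, was 0.022 in DESeq2, 0.00027 in voom, 0.0061 with RLE factors, 0.020 with no filter, 0.0017 under the replicate block and 0.045 with codes summed. Itpr2 was 0.013 in DESeq2, 0.016 in voom, 0.011 with no filter, 0.014 under the replicate block and 0.092 with codes summed, and it was called lower with the length and GC offset (-0.50, adjusted p = 0.0255). With a library left out, ranges were -0.18 to 0.27 for Vipr2, -0.060 to 0.037 for Ptgir, -0.11 to 0.22 for Il17ra, -0.016 to 0.13 for Traf2, -0.13 to 0.19 for Itpr2, -0.058 to 0.22 for Prkcd, -0.013 to 0.12 for Ptges3 and -0.067 to 0.30 for Alox5. Genes called in the lists were 21 in DESeq2, 7 with no filter, 0 with codes summed and 0 to 21 with a library left out. Over all genes, 1600 were called, against 3170 in DESeq2, 10 with codes summed (2 against 2) and 16 to 2606 with a library left out. Each cause was not tested. Same-numbered libraries showed no large shared deviation (correlations -0.0422, 0.0518 and 0.00747). The labels name no pairing, and a correlation from 3 libraries a genotype cannot exclude one. The replicate block called 1118 genes, Ramp1 among them (-1.56, adjusted p = 0.011), and 10 genes of the lists, without Ramp3 (-1.16). With 3 libraries a genotype and 228 to 392 reads for Il17rb, a difference of the size seen there was not called.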
